A study of Mus musculus with 24 samples.

Results

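Accessible chromatin of Tle4 neurons was followed from postnatal day 3 (P3) to postnatal day 7 (P7) through the 2 ATAC-seq peak lists deposited for these ages, and each peak was placed by whether the other list held it. A P3 peak with no base in common with any P7 peak was called lost, a P7 peak with no base in common with any P3 peak was called gained, and all others were called kept. On chromosomes 1 to 19 and X the P3 list held 22437 peaks and the P7 list 15182, together 37619 of the 292994 peaks in the 12 lists of the series. Of the P3 peaks 9451 were lost (42.1%, 95% interval 41.5 to 42.8) and 12986 kept, and of the P7 peaks 2191 were gained (14.4%, 13.9 to 15.0) and 12991 kept. These are the shares of all peaks in each list, against which every count by gene or context is read. All intervals are 95% Wilson intervals, or Newcombe intervals for a difference between shares, and cover counting error only.

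The neurons came from mice labelled C57BL/6, which the study kept on a mixed C57BL/6J background, carrying Tle4-2A-CreERT2 and the Ai14 reporter, in which Cre activity made the cells tdTomato positive. Pregnant dams received 4-HydroxyTamoxifen before birth, so both Tle4 ages had the same alleles and the same agent, and labelled cells were those in which the Tle4 locus drove Cre at that time. Somatosensory and motor cortex of several animals was pooled and tdTomato-positive cells were sorted. Callosal neurons of the same ages carried Cux2-CreERT2 in place of the Tle4 allele, with Ai14, and serve here for comparison. Each list was called by the authors on 2 pooled replicates, so each age is represented by 1 list. No spread between replicates can be given, no test between ages was made, and fewer cells with an open site cannot be told apart from weaker opening in each cell.

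Corticothalamic projection neurons (CThPNs) of layer 6 send axons to the thalamus, and Tle4, a transcriptional corepressor, is one of their defining genes. In ATAC-seq the transposase Tn5 inserts sequencing adapters into DNA that is not wrapped in nucleosomes, so a peak marks a promoter or a distal regulatory element that was open. The first postnatal week of the mouse cortex is a time of axon extension, dendrite growth and synapse formation. The promoters of Tle4 and of Tbr1, a T-box transcription factor of deep-layer neurons, carried peaks at both ages. Of other CThPN markers, Fezf2, Sox5, Ntsr1, Crym and Syt6 had no promoter peak at either age, and Foxp2 and Zfpm2 had one at P3 alone. The Tle4 promoter was also in all 6 Cux2 lists and that of Tbr1 in those of E18.5 and P7, so these peaks do not mark the class. No peak lay at the promoter of any of 14 oligodendrocyte lineage, 10 microglia or 10 endothelial markers at either age. Of 19 interneuron markers 1 had a promoter peak, Prox1, and of 13 astrocyte markers 1, Atp1b2, both kept, and of 15 progenitor markers Top2a and Id4 were kept and Vim was lost. Peaks assigned to these markers, to the nearest start site within 100 kb, were few, and the share lost differed between lists. Of P3 peaks, 9 of 12 were lost for progenitor (interval 46.8 to 91.1%), 8 of 11 for astrocyte (72.7%, 43.4 to 90.3), 7 of 10 for interneuron (70.0%, 39.7 to 89.2), 5 of 8 for endothelial, 4 of 9 for oligodendrocyte lineage markers and the 1 of microglia markers, against 40.8% of all assigned P3 peaks. Of all P3 peaks outside promoters 46.6% were lost, and the intervals for astrocyte and interneuron markers include that share. With both lists cut to their 15182 strongest peaks by −log10 p, fewer losses were left for progenitor, astrocyte and interneuron markers. They were assigned to Hes1, Eomes and Emx2 (progenitor), Slc1a2 and Slc1a3 (astrocyte), and Sst and Prox1 (interneuron). In the whole P7 list these marker lists had 0 to 6 assigned peaks each. The part of other cell types in the losses was not tested.

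Regions that stood highest by fold enrichment among the promoter or the other peaks of a set are shown as 201 bases around the summit, forward strand, build NCBIM37 (mm9). They are shown because their values in all lists are given next, and they do not stand for their sets. Capitals mark a match to 1 of 18 motifs searched on both strands: CCGGAAGT (ETS) in the Tufm promoter, GGGCGG (SP/KLF) near Agmat, and CATTGTT, the reverse complement of AACAATG (SOX), beside U2. The other 4 windows held none of the 18.
Lost, promoter of Tufm, chr7:133630691-133630891: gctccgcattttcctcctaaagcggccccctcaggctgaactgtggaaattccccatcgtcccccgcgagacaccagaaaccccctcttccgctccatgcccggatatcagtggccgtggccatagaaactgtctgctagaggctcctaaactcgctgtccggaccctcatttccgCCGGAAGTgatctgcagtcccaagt
Lost, between genes near Agmat, chr4:141290907-141291107: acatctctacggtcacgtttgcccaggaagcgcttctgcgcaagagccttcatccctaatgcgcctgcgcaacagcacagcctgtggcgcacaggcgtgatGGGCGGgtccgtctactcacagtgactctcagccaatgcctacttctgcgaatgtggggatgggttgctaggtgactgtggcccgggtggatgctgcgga
Lost, between genes on chromosome 19, chr19:49456366-49456566: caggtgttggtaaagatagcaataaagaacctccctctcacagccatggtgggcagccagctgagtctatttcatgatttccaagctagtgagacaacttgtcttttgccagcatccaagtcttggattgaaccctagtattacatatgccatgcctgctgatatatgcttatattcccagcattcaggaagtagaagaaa
Gained, beside an annotated U2 gene, chr5:9169763-9169963: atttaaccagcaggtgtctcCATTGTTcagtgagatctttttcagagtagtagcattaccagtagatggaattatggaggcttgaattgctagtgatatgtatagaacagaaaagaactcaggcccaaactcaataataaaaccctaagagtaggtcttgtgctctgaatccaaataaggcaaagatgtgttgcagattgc
Gained, intron of Gm12711, chr11:34695137-34695337: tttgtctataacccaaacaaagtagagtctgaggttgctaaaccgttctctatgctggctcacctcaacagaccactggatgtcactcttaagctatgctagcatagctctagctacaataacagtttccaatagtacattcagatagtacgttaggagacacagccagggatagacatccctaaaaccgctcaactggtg
Gained, between genes near Zfp956, chr6:47929077-47929277: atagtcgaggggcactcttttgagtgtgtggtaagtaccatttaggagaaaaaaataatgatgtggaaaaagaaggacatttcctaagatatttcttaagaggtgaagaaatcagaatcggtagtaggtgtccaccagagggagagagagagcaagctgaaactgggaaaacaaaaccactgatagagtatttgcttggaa
Kept, between genes on chromosome 3, chr3:5860558-5860758: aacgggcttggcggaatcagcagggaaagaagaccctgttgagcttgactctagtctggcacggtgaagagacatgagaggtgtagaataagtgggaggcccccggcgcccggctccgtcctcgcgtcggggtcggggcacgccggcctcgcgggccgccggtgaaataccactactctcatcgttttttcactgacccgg

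Among the lost regions, the Tufm promoter (mitochondrial elongation factor Tu) had a fold enrichment of 16.6 before birth (E18.5), 20.7 one list later, at P1, and 18.8 in the P3 list, and was listed neither at P7, P21 nor P48. The Cux2 lists held it at all 6 ages, at 14.5 at P7. The promoters of Epn1 (an endocytic adaptor), Ubxn11 and Med15 (a Mediator subunit) followed with fold enrichments of 17.9, 17.4 and 17.3 at P3. All 4 were listed in Cux2 neurons at P7, at 11.1 to 14.5 for Tufm, Epn1 and Ubxn11 and 8.67 for Med15. The region near Agmat (chr4:141290691-141291298, 11289 bp from the nearest start site) went from 10.7 (E18.5) over 12.0 (P1) to 18.6 (P3), and Cux2 neurons also held it at all 6 ages. The fourth strongest distal region, chr1:172185486-172186040, had 16.4 at P3 and was in the Cux2 lists of E18.5, P1, P3 and P7 (17.3, 12.2, 17.7 and 8.32). The other 2 of the 4 were different. The region chr19:49456293-49456789, 648436 bp from the nearest start site, was listed in Tle4 neurons with 15.9, 14.2 and 18.1 from E18.5 over P1 to P3 and in no later Tle4 list. The region chr15:17518347-17518781 had 10.8, 11.3 and 16.7 at the same ages. Neither was in any of the 6 Cux2 lists.

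The strongest gained regions were of several kinds. The region chr6:47928925-47929353, between genes 25479 bp from the start of Zfp956, was first listed in Tle4 neurons at P7 with a fold enrichment of 17.1, and again at P21 (16.8) and P48 (14.9). In Cux2 neurons it was listed from P3 onwards, at 9.21 at P3 and 17.6 at P7. The region chr8:82868909-82869335 had 16.6 at P7 and was in none of the other 11 lists. In contrast, the regions chr11:34695074-34695455 and chr16:57092524-57092916 were in the E18.5 and P1 lists (11.1 and 12.4 for the first, 15.8 and 15.9 for the second) and were missing at P3 alone among the Tle4 lists up to P7. A gained peak is therefore one absent at P3, not one first seen at P7. At promoters the leading gained peaks lay beside an annotated U2 gene (14.9) and at Tcrg-V7 (a T cell receptor gamma segment, 14.7), Gpx3 (a glutathione peroxidase, 14.6) and Cast (the calpain inhibitor calpastatin, 14.4).

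Among the strongest kept promoters, those of Rfwd3, Spc25 and Traf2 had fold enrichments of 23.5 to 24.1 at P3 and 19.9 to 25.3 at P7 and were in all 12 lists. The strongest kept distal region, chr3:5860524-5860862, had 27.9 at P3 and 23.7 at P7 and was also in all 12 lists. Its printed sequence is that of large-subunit ribosomal RNA, as background knowledge, and its central 51 bases occur 1 time in the build. The part of repeated sequence in its height was not tested.

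Genomic context separated the gained peaks from the others. Of gained peaks 8.49% (7.39 to 9.73) lay within 1 kb of a transcription start site, here called promoter peaks, against 43.1% (42.3 to 44.0) of kept P7 peaks, a difference of -34.6 percentage points (-36.0 to -33.1). Introns held 33.9% of gained peaks and 19.6% of kept P7 peaks, and 53.1% of gained peaks were intergenic. Peaks over 10 kb from any start site made up 71.4% of the gained set and 44.6% of the kept set. The difference held in lists of equal length, where both lists were cut to their 15182 strongest peaks by −log10 p and 11.0% of gained against 48.6% of kept peaks were at promoters.

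**Figure D1:**
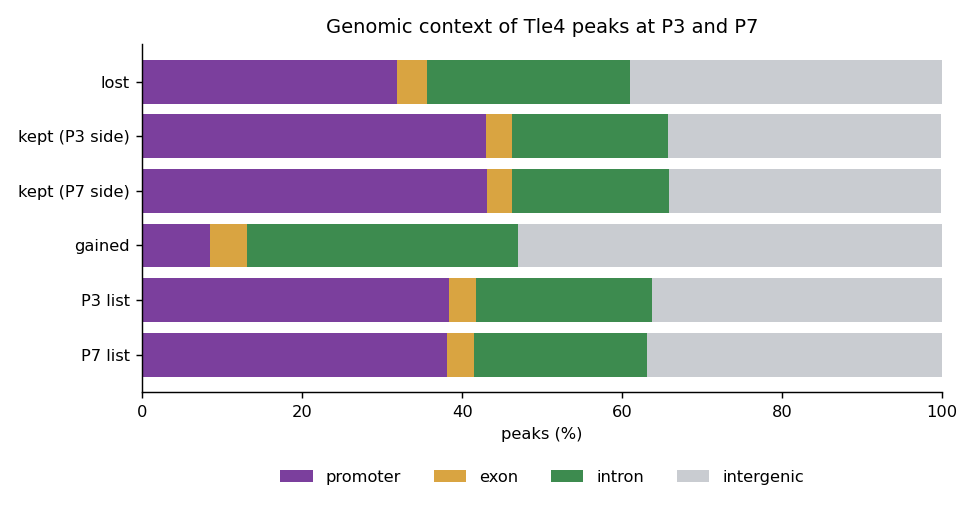
Stacked bars give the percent of peaks at promoters (within 1 kb of a start site), in exons, in introns and between genes for the lost, kept and gained sets and for the whole P3 and P7 lists. Promoters take 31.8% of lost, 43.0% of kept P3 and 8.49% of gained peaks, while the whole lists are close to each other at 38.3% and 38.1%.

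Lost peaks were less promoter-rich than kept ones, by a smaller margin. Of lost peaks 31.8% (30.9 to 32.7) were at promoters against 43.0% (42.2 to 43.9) of kept P3 peaks, a difference of -11.2 points (-12.5 to -9.96). Put the other way, 35.0% (34.0 to 36.0) of P3 promoter peaks and 46.6% (45.7 to 47.4) of other P3 peaks were lost. For gains the shares were 3.21% (2.79 to 3.70) of P7 promoter peaks and 21.3% (20.5 to 22.2) of other P7 peaks. The whole lists had nearly the same promoter share, 38.3% at P3 and 38.1% at P7.

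Weak peaks were lost and gained far more often than strong ones. When the P3 list was ordered by −log10 p and divided into 10 bins of equal size, 77.8% of the weakest bin and 0.401% of the strongest bin (9 of 2243 peaks) were lost. For gains the shares ran from 36.2% of the weakest P7 bin to 0 of 1518 peaks in the strongest (upper bound 0.252%). Median −log10 p was 28.5 for lost and 45.9 for kept P3 peaks, and 22.2 for gained and 28.9 for kept P7 peaks. Fold enrichment differed less, with medians of 8.79 for lost and 10.7 for kept P3 peaks, and 9.99 for gained and 10.4 for kept P7 peaks.

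Promoter peaks were lost less often overall but not among peaks of like −log10 p. In 5 bins of equal size from weakest to strongest, the share of promoter peaks lost was 86.2, 74.1, 54.6, 30.0 and 3.27%, and that of other peaks 72.9, 58.8, 40.9, 20.0 and 3.58%. In the 4 weaker bins promoter peaks were thus lost more often and their intervals did not overlap those of other peaks. Strength moved with context, as 3398 of 8593 P3 promoter peaks stood in the strongest bin against 1089 of 13844 others. Binned by fold enrichment instead, promoter peaks were lost more often in the 2 weaker bins (70.9 against 63.3% and 58.6 against 54.0%), alike in the middle bin (47.1 and 47.2%) and less often in the 2 stronger bins (29.8 against 33.3%, with overlapping intervals, and 7.75 against 16.8%). The direction at promoters thus depends on which measure of strength is held alike. Gains did not turn in this way. In each of the 5 bins the share gained was lower at promoters, by −log10 p (from 11.8 against 39.8% in the weakest to 0.0907 against 0.721% in the strongest) and by fold (from 8.08 against 16.2% to 0.438 against 10.8%).

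**Figure D2:**
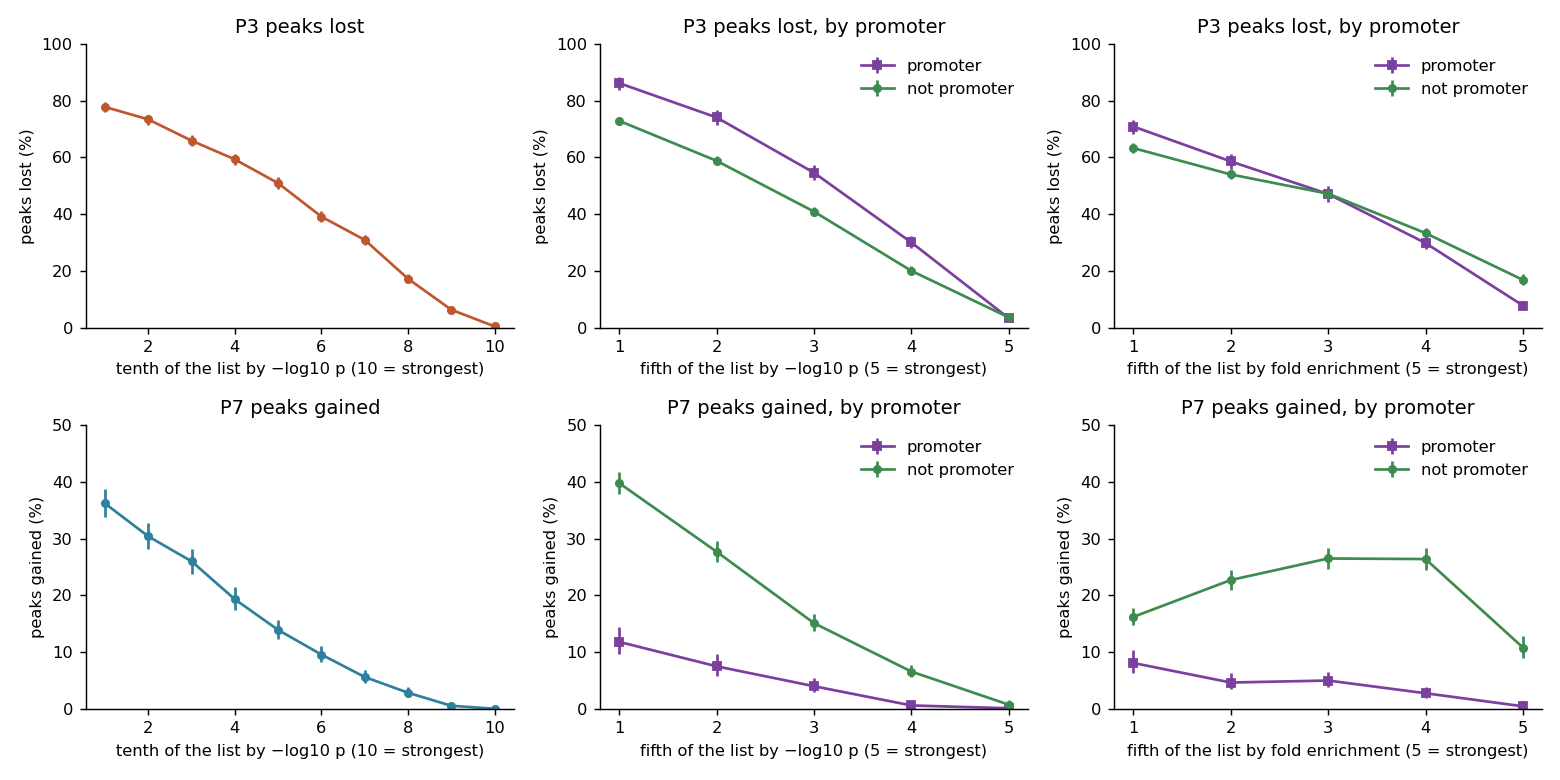
The percent of P3 peaks lost (upper row) and of P7 peaks gained (lower row, with a shorter axis) is plotted against peak strength, in 10 bins by −log10 p at the left and in 5 bins by −log10 p and by fold enrichment for promoter and other peaks in the middle and at the right, with 95% Wilson intervals. Loss falls from 77.8% to 0.401%, the promoter line lies above the other in the 4 weaker −log10 p bins but crosses it by fold, and the promoter line of gains lies below the other in every bin.

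List length and peak width bore on these counts. The P7 list covered 12.1 Mb, of which 9.64 Mb were common to both lists, which is 50.8% of the P3 bases and 79.8% of the P7 bases. The weakest peak had a −log10 p of 22.0 at P3 and of 19.5 at P7. At equal length 28.0% (27.3 to 28.7) of P3 peaks were lost and 27.8% (27.1 to 28.6) of P7 peaks gained, and with equal lengths the 2 shares are near each other by construction. Median width was 753 bp for lost, 854 bp for kept P3, 783 bp for kept P7 and 597 bp for gained peaks. Loss fell from 52.9% in the narrowest to 33.3% in the widest of 4 width bins, and gain from 26.5% to 6.38%. Each of 5 bins by −log10 p was also split at its median width. From weakest to strongest, wider peaks were lost in 78.7, 64.2, 46.3, 21.8 and 3.04%. Narrower peaks were lost in 72.5, 61.1, 43.8, 26.3 and 3.64%, so the direction of loss by width turned with strength. Gains were more frequent among narrower peaks in all bins but the strongest (44.4 against 22.2% in the weakest). Replacing each peak by a window reaching 250 bp to each side of its summit left the shares at 42.6% lost and 15.2% gained. Few calls rested on a near miss, as 85 lost peaks (0.899%) lay within 500 bp of a P7 peak and 20 gained peaks (0.913%) within 500 bp of a P3 peak. The median distance to the nearest peak of the other list was 46502 bp for lost and 33889 bp for gained peaks.

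**Figure D3:**
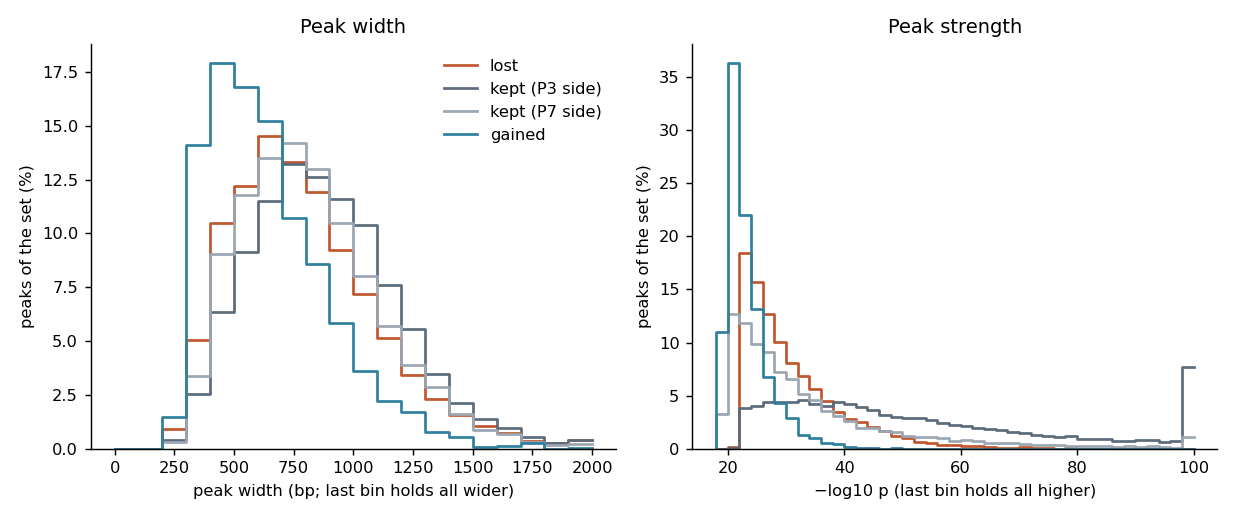
Step lines give the percent of each set by peak width in bp (left) and by −log10 p (right), with all wider or higher peaks in the last bin. Gained peaks are the narrowest (median 597 bp) and have the lowest −log10 p (median 22.2), and the P3 side of the kept peaks reaches highest (median 45.9).

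At peaks present at both ages, fold enrichment moved little while −log10 p fell. There were 12923 pairs in which a P3 and a P7 peak overlapped each other and no further peak, with a median summit shift of 26.0 bp. The median log2 fold enrichment at P7 minus that at P3 was -0.03 (quartiles -0.20 and 0.13), and 44.9% of pairs were higher at P7. The median ratio of −log10 p, P7 over P3, was 0.663. Promoter pairs and other pairs had the same median log2 difference in fold, -0.03, but a different −log10 p ratio, 0.597 at promoters and 0.719 elsewhere. In 5 bins by P3 fold, the median difference at promoters and elsewhere went from 0.07 and 0.03 (weakest) to -0.07 and -0.16 (strongest). The promoter median was not the lower one in any bin. The −log10 p ratio went from 0.723 and 0.793 to 0.561 and 0.594. Since −log10 p at like fold depends on the number of reads, and the depth of the libraries was not analysed here, the part of depth in the shorter P7 list was not tested.

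Base composition differed most for gained peaks. In windows reaching 250 bp to each side of the summit the median GC content was 47.9% in lost, 49.5% in kept P3 and 43.3% in gained peaks. Windows rich in CpG, with GC content above 50% and an observed to expected CpG ratio above 0.6, made up 26.0% of lost, 35.7% of kept P3 and 2.60% of gained peaks.

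Motifs were counted apart in promoter and other peaks. Outside promoters the RFX motif GTTGCCAT was in 3.58% (3.16 to 4.07) of lost, 2.43% (2.11 to 2.81) of kept P3 and 0.848% (0.530 to 1.35) of gained windows, against 2.58% of all 23239 such windows in both lists. RFX factors are winged-helix DNA-binding proteins. Among the stronger 50% of peaks the RFX motif was in 5.36% (4.18 to 6.86) of lost and 2.79% (2.34 to 3.34) of kept P3 windows. The forkhead motif TGTTTAC, of the FOX family, was in 2.34% (2.00 to 2.74) of lost and 1.37% (1.12 to 1.66) of kept P3 windows, against 1.61% of all, but among stronger peaks the intervals overlapped (1.64% and 1.34%). The NeuroD E-box CAGATG was the commonest of those named here outside promoters and was alike in the 3 sets, at 24.6% of lost, 24.0% of kept P3 and 25.3% of gained windows (24.1% of all). MEF2 motifs were also alike, at 6.79, 7.39 and 6.68% (7.16% of all). At promoters the NRF1 motif CGCATGCG was in 5.59% (4.82 to 6.47) of lost and 3.19% (2.76 to 3.68) of kept P3 windows (3.50% of all 14380), and SP/KLF GGGCGG in 55.3% (53.6 to 57.1) and 61.9% (60.6 to 63.1; 59.5% of all). The CTCF core AGGGGGCGC was in 2.60% (2.08 to 3.23) of lost and 1.52% (1.23 to 1.88) of kept P3 promoter windows (1.71% of all). The promoter shares were not counted again among stronger peaks, so strength was not held alike for them. Motifs were searched apart from each other on both strands and may overlap. A match is a description of the letters in the window and was not linked to any factor's binding.

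Lost peaks were mostly peaks that had been open before P3. Of the 9451 lost peaks 63.5% (62.5 to 64.5) were in the P1 list and 56.7% in the E18.5 list, and 74.6% were in at least 1 of them. After P7 4.15% were listed at P21 and 11.3% at P48. Kept P3 peaks were present more often at each of these ages, at 88.4% at P1, 81.2% at E18.5, 34.3% at P21 and 46.8% at P48. A class of 931 lost peaks (9.85%) was listed both before P3 and after P7, and thus absent at P7 between ages at which it was listed. Of gained peaks 60.0% (57.9 to 62.0) were in none of the other 4 Tle4 lists, 17.0% in later ones alone, 17.8% in earlier ones alone and 5.20% in both. For kept P7 peaks these shares were 5.60, 2.46, 44.0 and 47.9%. The late lists are short, with 6538 peaks at P21 and 11836 at P48, and absence from them is read against these lengths.

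**Figure D4:**
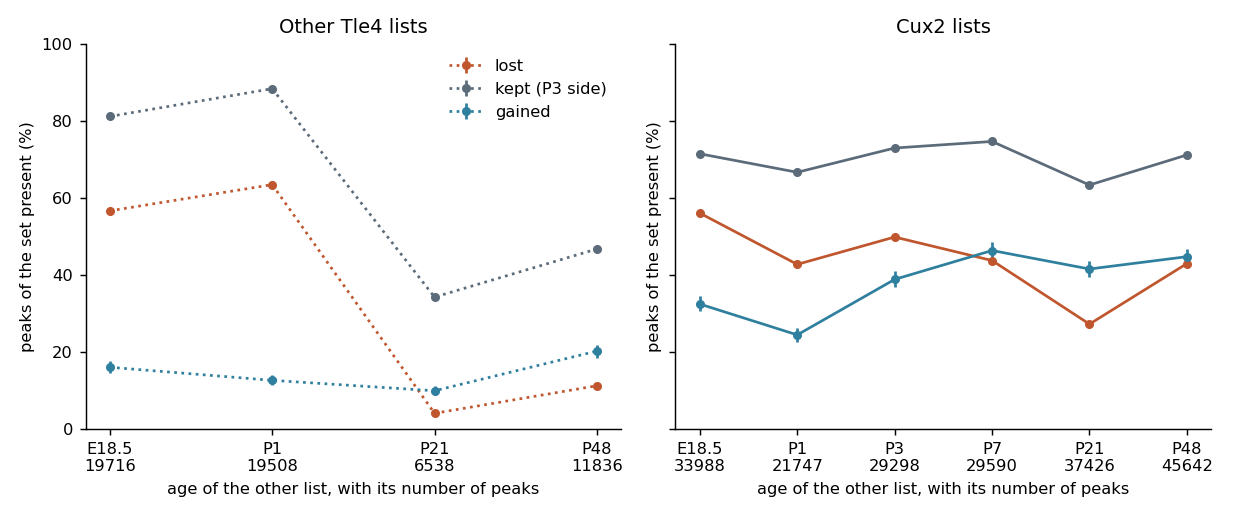
Points give the percent of lost, kept (P3 side) and gained peaks that overlap a peak of each other Tle4 list (left) and each Cux2 list (right), with 95% Wilson intervals and the number of peaks of that list under its age. In the Tle4 lists lost peaks lie between kept and gained ones before P3 and below both after P7, and in the Cux2 lists lost peaks go from 49.9% at P3 to 43.8% at P7 while gained ones go from 38.9% to 46.4%.

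Many peaks lost in Tle4 neurons were listed in Cux2 neurons, whose lists were longer and reached weaker peaks. Of lost peaks 49.9% were in the Cux2 list of P3 and 43.8% (42.8 to 44.8) in that of P7, of kept P3 peaks 73.0% and 74.7%, and of gained peaks 38.9% and 46.4%. The weakest peak had a −log10 p of 12.3 in the Cux2 list of P7 and of 19.5 in the Tle4 list of P7. Cut to its 6538 strongest peaks, the Cux2 list of P7 held 4.70% of lost, 38.4% of kept P3 and 7.26% of gained peaks. These shares thus depend on the length of the Cux2 list. Lost peaks held in both Cux2 lists numbered 3562 (37.7%), and 53.4% of them were at promoters. A further 2652 lost peaks (28.1%) were in no Cux2 list at any age, and 4.56% of these were at promoters. Of kept P3 peaks 69.2% were in both Cux2 lists and 13.2% in none, with 59.1% and 3.28% at promoters, so the promoter contrast was also present in kept peaks. Over the same interval the Cux2 lists had 29298 and 29590 peaks, with 30.1% lost and 30.9% gained. At 15182 peaks in each list the Cux2 shares were 31.5% lost and 31.6% gained, and those of the preceding Tle4 step from P1 to P3 were 15.4% and 15.8%. Of the peaks lost at that length 39.9% were at promoters in Tle4 and 28.8% in Cux2 neurons. Of the P3 peaks kept at that length 48.5% and 54.6% were, so lost peaks had the lower promoter share in both classes. Gained peaks were promoter-poor in both classes at that length. Promoters held 11.0% of gained against 48.6% of kept P7 peaks in Tle4, and 13.0 against 54.5% in Cux2 neurons. With 1 list for each age and class these differences have no replicate check.

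By gene, 8897 of 22208 protein-coding genes had a promoter peak at P3 and 6143 at P7. A gene was counted as kept when each list had a peak within 1 kb of any of its start sites. The P3 and P7 peaks of a kept gene need not share a base. Genes with such a peak at P3 alone were counted as lost, and those with one at P7 alone as gained. The promoter peak was kept for 6013 genes (27.1%), lost for 2884 (13.0%) and gained for 130 (0.585%). At equal length 1718 genes lost and 379 gained one. Of the 2884 genes 67.3% had a promoter peak at P1 and 71.0% had one in Cux2 neurons at P7, and of the 6013 kept genes 96.5% and 97.2%.

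The gene lists are described by their counts beside these shares. Among 19 CThPN identity genes found, 9 had a promoter peak at P3, of which 5 were kept (Tle4, Tbr1, Nfia, Kcnab1 and Mc4r) and 4 lost (Foxp2, Zfpm2, Nfib and Rprm). Tle4 itself had a fold enrichment of 10.3 at P3 and 9.67 at P7, with −log10 p of 87.8 and 53.1. The lost promoters had fold enrichments at P3 of 4.98 for Foxp2, a forkhead factor, 5.33 for Zfpm2, a zinc finger cofactor, 6.38 for Nfib, a nuclear factor I member, and 5.31 for Rprm. The kept ones ran from 5.60 at Tbr1 to 12.6 at Mc4r, so the 2 ranges overlapped. At equal length 1 was lost (Nfib), 1 gained (Kcnab1) and 4 kept. Kcnab1 counts as gained there because the cut removed its P3 peak. The genes Fezf2 and Sox5, regulators of deep-layer identity, had no promoter peak, but 4 of 6 P3 peaks assigned to Fezf2 were kept and Sox5 had 2 peaks gained. Over the list 38.2% (26.5 to 51.4) of 55 assigned P3 peaks were lost against 40.8% of all. For 20 callosal identity genes 43.8% of 32 assigned peaks were lost, and the promoter peaks of Mef2c, Dok5 and Unc5d were lost while those of Pou3f1, Rorb and Lmo4 were kept.

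The genes of the immature neuron's cytoskeleton and the SoxC factors lost promoter peaks at a larger share of listed genes than the other 15 lists, though not of those with a P3 peak, of which the callosal list lost 3 of 6. Of 25 genes, 9 lost their promoter peak (36.0%, against 13.0% of all genes) and 10 kept it. At equal length 7 were lost. Losses were seen at Sox12, at Stmn1 and Stmn3, which bind tubulin, at Dpysl2, Dpysl5 and Crmp1, of the collapsin response mediator family, and at Marcks, Basp1 and Apc2. Fold enrichments at P3 ran from 4.03 at Marcks to 9.82 at Stmn3, the latter with a −log10 p of 46.4. Dpysl2 had 7.81 at P3 and Apc2 8.16, with −log10 p of 50.7 and 51.3, which is above 73.8% and 74.5% of the P3 list. In Cux2 neurons at P7 the promoters of Dpysl5 and Crmp1 had no peak either, while those of Stmn1, Stmn3, Dpysl2 and Apc2 did. In Tle4 neurons the promoters of Stmn3 and Dpysl2 were listed again at P48. Those of the other lost genes were listed neither at P21 nor at P48. Sox4 and Sox11 kept their peaks, with 6.61 at P3 and 7.05 at P7 for Sox4 and 6.86 and 7.63 for Sox11, as did Tubb3, at 8.16 and 8.34. Of 53 peaks assigned to the list 56.6% (43.3 to 69.0) were lost, against 40.8% of all assigned peaks and the higher shares of the progenitor, astrocyte and interneuron markers given above. Since 19 of 25 of these genes carried a promoter peak at P3 against 8897 of all genes, a larger count could be lost, and 9 of 19 compares with 32.4% of all genes that had one.

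**Figure D5:**
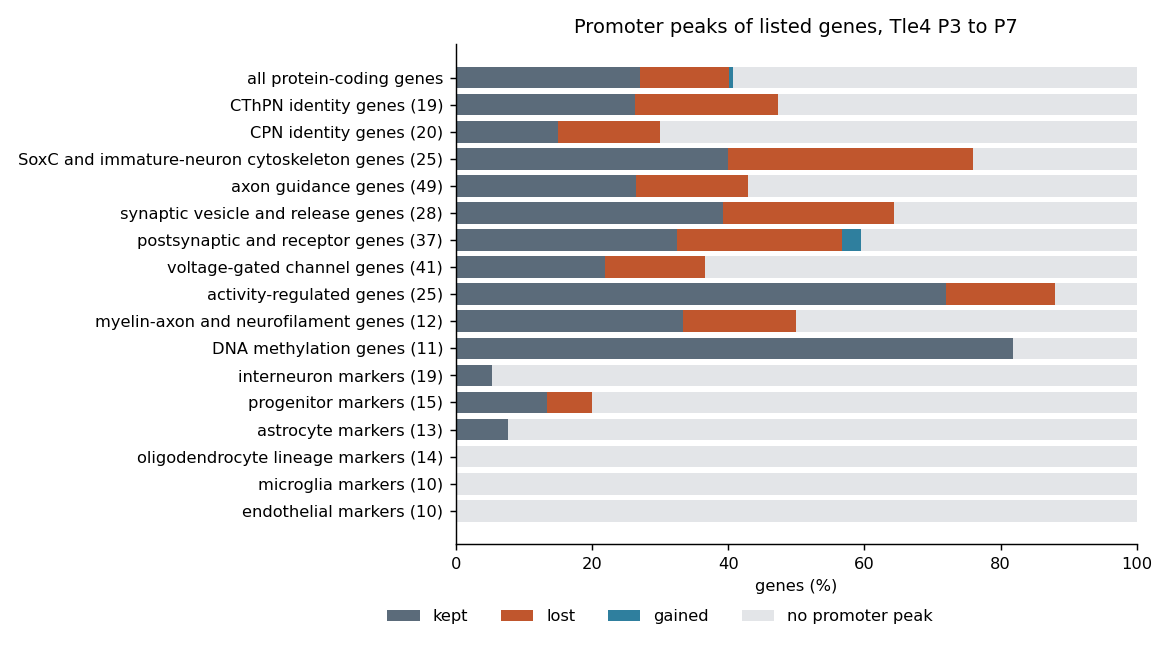
Stacked bars give the percent of genes in each list whose promoter peak was kept, lost or gained or who had none, with the number of genes found in parentheses and all protein-coding genes at the top. The SoxC and cytoskeleton list has 9 lost and 10 kept of 25 genes, the activity-regulated list 18 kept of 25, and the DNA methylation list 9 kept and none lost of 11.

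The counts of the next lists are read against the 32.4% of all genes with a P3 promoter peak that lost it, and against 40.8% for assigned peaks. Axon guidance genes lost 8 of 21 promoter peaks, at Robo1, Slit3, Neo1, Unc5d, Sema6a, Plxna2, Plxnb1 and Cntn2, and all 8 had −log10 p values of 22.9 to 28.1 near the lower end of the list. At equal length none was lost and 3 were gained (Unc5b, Sema4d and Sema5b), so the direction of this list turned with list length. In the whole lists these 3 were kept, and they count as gained because the cut removed their P3 peaks. The same holds for each gene named below as gained at equal length. Those of Epha3, Epha4, Epha5 and Epha7, receptors of the ephrins, were kept. Of the 88 assigned peaks of this list 53.4% (43.1 to 63.5) were lost. Genes of synaptic vesicles and release lost 7 of 18, including Syn1 (9.53), Snap25 (7.61) and Stx1a (13.3), fold enrichments at P3, which code for a vesicle phosphoprotein and for the fusion machinery. These 3 were also lost at equal length, where the list had 4 lost and 1 gained (Syp). Postsynaptic and receptor genes lost 9 of 21, among them Camk2a (8.13) and Camk2b (7.29), subunits of a calcium-dependent kinase, and Dlg3 (9.17). Camk2a was in each of the other 4 Tle4 lists and all 6 Cux2 lists, so that P7 was the 1 list of 12 without it. Gabra2, a GABA-A receptor subunit, gained a promoter peak (7.33 at P7). Voltage-gated channel genes lost 6 of 15, with Kcnc1 (9.28), Kcnn2 (6.55) and Cacna1a (8.09) also lost at equal length, where as many were gained (Kcna4, Kcnh1 and Kcnj3).

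Activity-regulated genes lost 4 of 22 promoter peaks and DNA methylation genes none of 9, beside the 32.4% of all genes. These counts are small and no interval was made for them. Of 22 activity-regulated genes with a P3 peak, 18 were kept, including Fos, Junb, Egr1, Arc and Nr4a1, all immediate early genes, and 4 were lost (Fosb, Npas4, Ier2 and Nptx2). The −log10 p percentiles of the lost peaks in the P3 list ran from 11.5 (Fosb) to 57.3 (Nptx2). Those of the kept peaks ran from 26.0 (Arc) to 92.9 (Egr1). At equal length 16 were kept, 3 lost and 2 gained (Egr3 and Arc), the last 2 because the cut removed their P3 peaks. Of their 50 assigned peaks 26.0% (15.9 to 39.6) were lost, against 40.8% of all assigned peaks. All 9 DNA methylation genes with a P3 peak kept it, among them Dnmt1, the maintenance methyltransferase, and Tet1 and Tet2, which oxidize methylcytosine. These 9 peaks were strong, with −log10 p at percentiles 51.2 (Dnmt3b) to 97.9 (Mbd3) of the P3 list. From the middle to the strongest of 5 bins, 54.6, 30.0 and 3.27% of all promoter peaks were lost. The part of strength in either list was not tested. In the neurofilament and myelin-axon list Nefh (9.56) and Ina (8.01) lost their peaks and Ank2, Cntn1, Cntnap1 and Sptbn4 kept theirs.

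The genes with the most lost peaks were long genes, of 282 to 1504 kb. Frmd4a, a FERM-domain scaffold gene of 596 kb, and Pde4d, a cAMP phosphodiesterase gene of 1504 kb, each lost 9 peaks, of 12 and 15 at P3. Ank3, which codes for ankyrin-G of the axon initial segment, lost all 8 of its P3 peaks and gained 1, and 9 peaks were assigned to it at P1 and 6 at P48. Ablim1, an actin-binding LIM gene, lost all 7 of its peaks and had 7 at P1 and 1 at P21 and at P48. Camta1, a calmodulin-binding activator, and Odz4, a teneurin, lost 7 each of 10 and 13, and Fam189a1 and Dync1i1, a dynein intermediate chain, lost 6 each of 7 and 9. The most gains were at Pde4d, with 6 of 12 P7 peaks, all outside its promoter, so that the same gene stood among the highest in both directions. At equal length the losses were fewer, at 5 for Ablim1, 4 for Camta1, 3 for Frmd4a and for Odz4, 2 for Ank3 and 1 for Fam189a1 and for Dync1i1, and Pde4d turned to 4 lost and 7 gained. Zranb2, Abt1, Rttn, Itpr1 (an inositol trisphosphate receptor) and Etl4 gained 4 each, and 4930449E01Rik and Gpr110 gained 3 each. Itpr1 lost 3 of 7 peaks as well. A count of peaks by gene rises with the length of the gene and of the space around it, and 12.7% of all assigned P7 peaks were gained.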

How the data were processed

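Per the labels and the study's methods, the authors aligned ATAC-seq reads to mm9 with Bowtie2, removed duplicates with Picard and called peaks with MACS2 on 2 pooled replicates under an irreproducible discovery rate limit of 0.1. A shift of read ends is not given in the sources used here. The deposited lists hold, per peak, a fold enrichment (ratio), a −log10 p, a display score and a summit offset. Depth and counts per library were not analysed here. Peaks on chromosomes 1 to 19 and X were used, which leaves out 2 mitochondrial and 4 Y peaks at P3 and 3 and 4 at P7. 1 P3 peak passes the end of its chromosome in the reference.

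Peaks were compared by overlap of at least 1 bp with Python 3 scripts (numpy, pandas, pysam), tested on simulated intervals. Context came from GENCODE vM1 on NCBIM37 in the order promoter, exon, intron, intergenic. Named regions were the 4 promoter and 4 other peaks of highest fold percentile in each set, and named genes the 8 with most lost and most gained peaks, and members of 16 lists. Some genes that this rule names are not reported here. The members and lists were chosen with earlier results of these data known. The alternatives tried are list length, strength, overlap rule, width and promoter distance. Binning by fold was added after seeing the data.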

Additional observations from a re-analysis of the deposited data

How the results depend on the processing

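Overlap rules and promoter distance changed little, while list length and peak strength moved most values. The share of P3 peaks lost, 42.1%, was 28.0% at equal length by −log10 p, 32.4% at equal length by fold, 51.3% at a common −log10 p minimum and 18.8% among the stronger 50% of peaks. The share gained, 14.4%, was 27.8, 32.3, 9.59 and 3.70% in the same order and 15.2% with windows of fixed width. The promoter share of lost minus kept peaks, -11.2 points, was -8.61, -15.8, -13.9 and -6.19, and that of gained minus kept peaks, -34.6 points, was -37.6, -30.1, -36.8 and -47.1, and -32.4 at fixed width. None of these differences changed sign. Genes whose promoter peak was lost, 2884, numbered 1718 at equal length by −log10 p, 1642 by fold, 3513 at the common minimum and 1065 among stronger peaks. Genes whose promoter peak was gained, 130, numbered 379, 776, 68.0 (common minimum) and 12.0 (stronger peaks).

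Each list pools its replicates, so leaving one out was not possible. No paired analysis was possible because each list pools 2 replicates and the result comes from no test. Counts by gene for short lists rest on few peaks, and absence from a list is not absence of open chromatin.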
